A study of Mus musculus with 6 samples.

Results

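The genes described here encode the factors that start, extend and end protein synthesis in mouse kidney, together with the kinases and binding proteins that regulate them. They were chosen by symbol from the array's annotation, through probe sets with exactly 1 gene: symbols beginning with Eif and a digit, Eef, Paip, Pabpc or Rps6k, plus Etf1 and Gspt1, with the Y-linked Eif2s3y left out. The rule found 76 genes of the 18193 genes measured, and used no measured value. No filter on low signal was applied, so all 76 were tested. RNA came from 3 samples of cystic renal epithelium, dissected from mice carrying a knockout of Fh1, and from 3 samples of renal epithelium of wild-type littermates, hybridised to 1 Affymetrix array each. Fh1 encodes fumarate hydratase, the tricarboxylic acid cycle enzyme that converts fumarate to malate. The series describes the controls as free of disease and matched for sex. The sources used here give neither the promoter driving any recombinase nor the age of the mice. They do not say whether the samples of a group were taken from different animals, so the p-values speak of the spread between these arrays alone.

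Protein synthesis begins when eIF2 carries the initiator tRNA to the small ribosomal subunit, which eIF3, eIF1 and eIF1A prepare for scanning. The cap-binding protein eIF4E, the helicase eIF4A and the scaffold eIF4G bring the mRNA, whose tail is held by poly(A)-binding protein. Stress kinases phosphorylate eIF2 and so lower initiation, and the eIF4E-binding proteins sequester eIF4E when the kinase mTOR is inactive. Elongation factors then deliver tRNAs and move the ribosome. Array signal measures mRNA only, and says nothing of phosphorylation or of the rate of protein synthesis.

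Signals are RMA values on the log2 scale, and each gene was read by its brightest probe set. Differences are knockout minus wild-type log2 fold changes, with their moderated standard error (SE), and a gene is called at a limma adjusted p under 0.05. The signal of Fh1 itself was 11.54, 11.60 and 11.61 in the knockout samples, against 12.41, 12.34 and 12.22 in the wild-type samples. It was lower by 1.67-fold, and whether its probe set lies in the deleted stretch is not given. Knockout arrays correlated with each other over all genes at 0.995 to 0.997, wild-type arrays at 0.988 to 0.992, and arrays of different groups at 0.952 to 0.964. Wild-type sample 2 stood apart in sex-linked genes: the Y-linked Kdm5d read 8.05, 7.86 and 8.05 in the knockout samples, against 7.38, 4.38 and 7.25 in the wild-type samples. Xist, the X-inactivation RNA, read 7.97, 6.27 and 5.61 in the knockout samples, against 6.38, 11.96 and 6.25 in the wild-type samples. These values go against matching for sex, and the calls of single genes that change without wild-type sample 2 are named with the gene.

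The translation factor genes were more often higher than lower in knockout tissue. Of the 76 genes, 35 (46.1%) were higher, 4 (5.26%) were lower and 37 were not called, against backgrounds of 21.6% higher, 27.7% lower and 49.2% called in either direction among all 18193 genes. Their median log2 fold change was 0.23, against -0.11 for all genes, and their values ran from -0.55 for Eefsec to 1.82 for Eif4ebp1. The changes were mostly small: only Eif4ebp1, Eif2ak2, Eif1a and Eif6 were at least 2-fold higher, and none was 2-fold lower. The mean signal over the 76 genes was 9.63, 9.64 and 9.61 in the knockout samples, against 9.40, 9.35 and 9.33 in the wild-type samples. Separation of such means was not particular to these genes. Over all genes the means were 7.35, 7.37 and 7.36 in the knockout samples, against 7.38 in each wild-type sample. Over genes with at least the median signal they were 9.34, 9.34 and 9.36, against 9.31, 9.30 and 9.25. All 3 knockout values lay above all wild-type values for 40 of the 76 genes, against 25.7% of all genes, and below them for 13, against 37.1% of all genes.

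Most of these genes gave bright signals, and bright genes as a whole were called higher more often. In a fit of the brighter 9097 genes, those with at least the median signal, 33 of 63 members (52.4%) were higher and 5 (7.94%) lower, against 32.4% and 25.7% of the genes in that fit. Without wild-type sample 2, 32 of the 76 (42.1%) were higher and 4 (5.26%) lower, with a median of 0.23. Over all genes that fit gave 21.2% higher and 26.4% lower, with a median of -0.12. With every array centred on its median gene, 30 were higher and 11 lower, so that 73.2% of calls were higher, against 89.7% as deposited. Over all genes the centred arrays gave 18.6% higher and 37.7% lower, with a median of -0.19, against 39.5% and 14.5% of the translation factor genes.

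**Figure D1:**
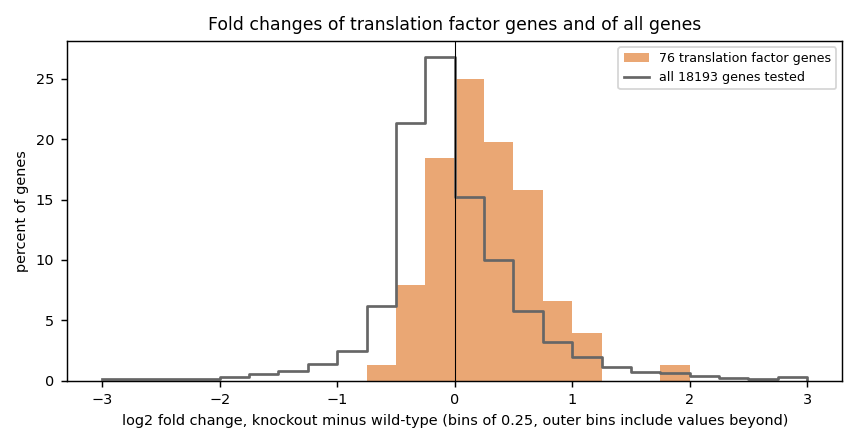
Share of genes (percent, y axis) in bins of 0.25 of the log2 fold change, knockout minus wild-type (x axis), for the 76 translation factor genes (filled bars) and all 18193 genes (line). The filled bars lie further to the right: 25% of the translation factor genes, against 15.2% of all genes, fall between 0 and 0.25.

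Markers of several cell types also changed in this contrast. Among 15 proximal tubule markers, 14 were lower in knockout tissue, with a median log2 fold change of -1.5. Their mean signal per array was 11.20 to 11.46 in the knockout samples and 12.84 to 12.93 in the wild-type samples. Of 14 immune cell markers 12 were higher (median 1.74, array means 9.30 to 9.62 in knockout and 7.86 to 8.12 in wild-type samples), and of 11 fibroblast and matrix markers 9 were higher (median 1.55, array means 9.62 to 10.64 in knockout and 8.31 to 8.68 in wild-type samples). All 6 measured proliferation markers were higher, with array means of 8.29 to 8.37 in knockout and 7.0 to 7.15 in wild-type samples. Smaller lists moved down: 7 of 8 distal nephron, 4 of 6 collecting duct, 5 of 6 endothelial and 2 of 4 podocyte markers were lower. In bulk tissue, fewer cells of a type and less RNA per cell cannot be told apart. The part of these cell types in the translation factor results was not tested.

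**Figure D2:**
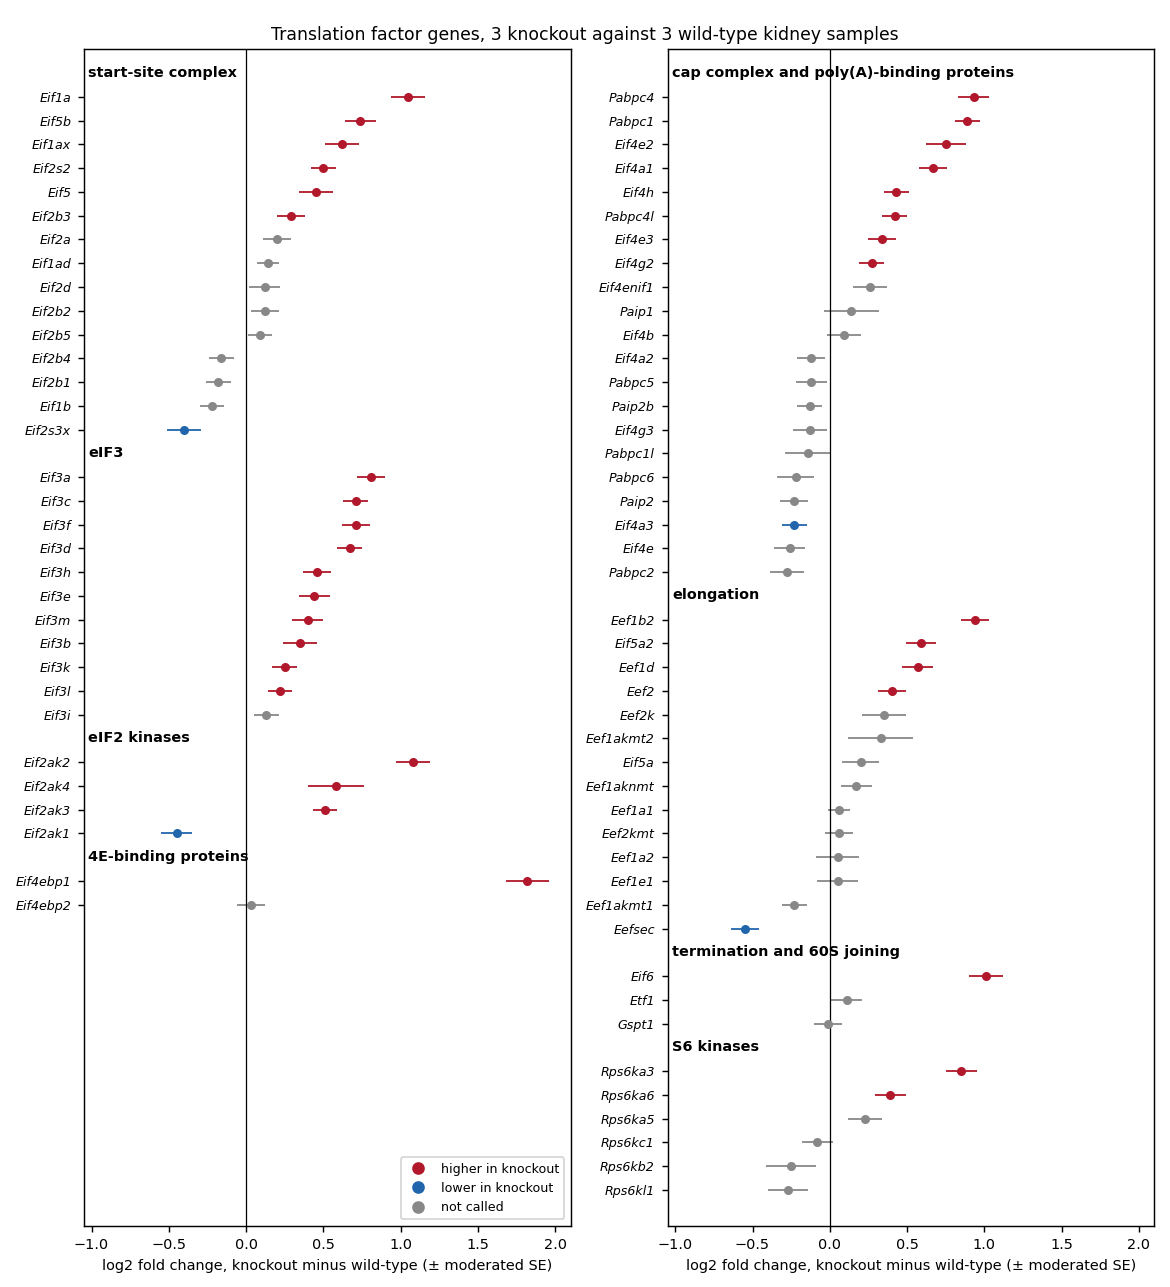
Log2 fold change, knockout minus wild-type (x axis, log2 units), of each of the 76 genes (rows, by role), with bars of 1 moderated SE and colours for the limma call. Of the 11 eIF3 genes shown, 10 are called higher, and Eif4ebp1 lies furthest right at 1.82. The 4 genes called lower are Eif2s3x, Eif4a3, Eif2ak1 and Eefsec.

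Promoter sequences were searched for shared motifs in RefSeq windows of 250 bases before to 50 after the start (GRCm38.p6). These windows matched 57 of the 76 genes by gene identifier. On both strands, with no overlap between motifs, CACGTG (the E-box, bound by MYC and related factors) was found in 12 of the 57 (21.1%). It was found in 10.3% of the 14368 tested genes with such a window and 8.09% of all 27025 genes with a window. CCGGAAG, the core bound by ETS factors, was found in 18 of the 57 (31.6%), against 15% of tested genes and 9.93% of all genes with a window. The stretches shown are 30 bases of promoters of genes described in the next paragraphs, 5′ to 3′ on the gene's strand, chosen after their values were seen, with the motif or its reverse complement in capitals.
Eif3f (chr7:108934335-108934364, plus strand, E-box): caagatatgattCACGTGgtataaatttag
Eif3a (chr19:60790654-60790683, minus strand, E-box): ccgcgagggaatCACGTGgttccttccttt
Eif4a1 (chr11:69672595-69672624, minus strand, E-box): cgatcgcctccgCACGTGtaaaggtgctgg
Eef2 (chr10:81176576-81176605, plus strand, E-box): acccggcgccgtCACGTGacgcacccaacc
Eif4e (chr3:138527192-138527221, plus strand, E-box): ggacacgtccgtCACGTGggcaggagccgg
Eif3c (chr7:126566416-126566445, minus strand, ETS core): attctttggtgCTTCCGGgaagtgacgccc
Eif4e2 (chr1:87213905-87213934, plus strand, ETS core): tcgccagccaaCCGGAAGtagccgggccct
Eef1b2 (chr1:63176821-63176850, plus strand, ETS core): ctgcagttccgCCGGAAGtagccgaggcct
Eif2ak1 (chr5:143817797-143817826, plus strand, ETS core): ctcttgtgttaCTTCCGGcttggggggagg
Eif2ak2 (chr17:78882535-78882564, minus strand, interferon-stimulated response element): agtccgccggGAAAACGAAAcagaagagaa

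Genes with and without these motifs were then set against their calls, with no test. Of the 12 genes with an E-box, 7 were higher, 0 lower and 5 not called, and of the 45 without it 17 were higher. Of the 18 genes with an ETS core, 8 were higher, 1 lower and 9 not called, and of the 39 without it 16 were higher. An interferon-stimulated response element, searched as GAAA, any 2 bases, GAAA, was found in 3 genes (5.26%, against 3.64% of tested genes): Eif2ak2 and Eif3a, both higher, and Eif2s3x, lower. The element bound by C/EBP and ATF factors, TGATGNAA, was found in 2 (3.51%, against 3.24% of tested genes): Eef2k, not called, and Eif2s3x. A match describes these letters only, and binding was not measured.

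The start-site group gathers 15 genes, those of eIF1, eIF1A, eIF2, eIF2B, eIF5 and eIF5B with others of like symbol. Of these, 6 were higher (40%, against 21.6% of all genes), 1 was lower (6.67%, against 27.7%) and 8 were not called. Their median log2 fold change was 0.14. With arrays centred, and also after quantile normalisation, 5 were higher and 4 lower. Over all genes the shares higher and lower were 18.6% and 37.7% with arrays centred, and 20.3% and 22% after quantile normalisation. Eif1a encodes eIF1A, which keeps the small subunit open for scanning. Its signal was 10.36, 10.38 and 10.17 in the knockout samples, against 9.41, 9.24 and 9.11 in the wild-type samples. It was 2.07-fold higher (log2 fold change 1.05, SE 0.11, limma adjusted p = 0.000253), and the groups did not overlap. Its X-linked copy Eif1ax was higher by 0.62 (SE 0.11, limma adjusted p = 0.00365), but 2 other probe sets of Eif1ax, at -0.14 and -0.03, were not called, and the mean over its probe sets was 0.15 (limma adjusted p = 0.0794). The copies are close in sequence, and cross-hybridisation was not tested.

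Eif5b encodes the GTPase that joins the large ribosomal subunit to the initiation complex. It read 9.84, 9.75 and 9.74 in the knockout samples, against 9.03, 9.19 and 8.89 in the wild-type samples, with no overlap (log2 fold change 0.74, SE 0.10, limma adjusted p = 0.000776). Subunits of eIF2 moved apart. Eif2s2, the beta subunit, was higher by 0.50 (limma adjusted p = 0.00207), and all 6 of its probe sets were called higher, at 0.39 to 1.43. Eif2s3x, the X-linked gamma subunit, read 10.27, 10.31 and 10.23 in the knockout samples, against 10.44, 10.79 and 10.79 in the wild-type samples. It was lower by 0.40 on the log2 scale at a limma adjusted p of 0.0215, and its other 2 probe sets were lower too, at -0.39 and -0.75. Its call was lost when knockout sample 1, 2 or 3 or wild-type sample 2 or 3 was left out (limma adjusted p of 0.0527 to 0.0695), and without wild-type sample 2 the difference was -0.34. Its Y-linked copy Eif2s3y, which the rule leaves out, read 9.55, 9.59 and 9.54 in the knockout samples, against 9.2, 6.2 and 8.7 in the wild-type samples. Of the genes of eIF2B, the exchange factor that recharges eIF2 with GTP, Eif2b3 was higher (0.29), while Eif2b1, Eif2b2, Eif2b4 and Eif2b5 were not called, at -0.18 to 0.12. The call of Eif2b3 was lost without knockout sample 1, 2 or 3. Eif5, which makes eIF2 hydrolyse its GTP at the start codon, was higher by 0.45 (limma adjusted p = 0.0136) with all 5 probe sets called higher, and lost the call without knockout sample 1. Eif2a, Eif2d, Eif1ad and Eif1b were not called, at -0.22 to 0.20. The alpha subunit gene Eif2s1 and the scaffold gene Eif4g1 were not analysed here.

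The genes analysed of the eIF3 complex, the large assembly that holds the small subunit and the mRNA together, were mostly higher. Of these 11 genes 10 were higher (90.9%, against 21.6% of all genes), 0 were lower (against 27.7%) and Eif3i was not called. Their median log2 fold change was 0.44. In all 11, every knockout value lay above every wild-type value, a separation seen in 25.7% of all genes and in 3457 of the 9097 brighter genes. Without knockout sample 2 the number called higher was 6, as it was at an adjusted p of 0.01. In the fit without that sample 17.1% of all genes were higher. Eif3a, the subunit on which the complex is built, read 11.74, 11.71 and 11.73 in the knockout samples, against 11.02, 10.97 and 10.76 in the wild-type samples. It was 1.75-fold higher (log2 fold change 0.81, SE 0.09, limma adjusted p = 0.000412). Eif3c read 12.37, 12.38 and 12.31 in the knockout samples, against 11.67, 11.70 and 11.56 in the wild-type samples, with no overlap. Eif3f, a subunit with an MPN domain, read 12.26, 12.32 and 12.26 in the knockout samples, against 11.48, 11.69 and 11.54 in the wild-type samples. Both differences were 0.71 on the log2 scale, with limma adjusted p-values of 0.000373 for Eif3c and 0.000524 for Eif3f. All 4 probe sets of Eif3a and all 4 of Eif3c were called higher. The other genes called higher ran from 0.22 for Eif3l through 0.25 for Eif3k, 0.35 for Eif3b, 0.40 for Eif3m, 0.44 for Eif3e and 0.46 for Eif3h to 0.67 for Eif3d. The smaller differences were less steady: Eif3l lost its call whichever array was left out, Eif3b lost it without knockout sample 1 or 2 or wild-type sample 1 or 2, Eif3k without knockout sample 1, 2 or 3 or wild-type sample 2, and Eif3m without knockout sample 2.

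The 21 genes of the cap complex and the poly(A)-binding proteins were mixed, with a median of 0.09. Of these, 8 (38.1%) were higher and 1 (4.76%) lower, against 21.6% and 27.7% of all genes, and 12 were not called. The counts were 7 higher and 4 lower with arrays centred, and 6 higher and 3 lower with probe sets averaged. Over all genes those fits gave 18.6% higher and 37.7% lower, and 20.2% higher and 30% lower. The genes called higher included those of proteins that bind the mRNA tail and of the helicase. Pabpc1, the main cytoplasmic poly(A)-binding protein, read 13.42, 13.28 and 13.32 in the knockout samples, against 12.40, 12.44 and 12.53 in the wild-type samples, and was 1.85-fold higher (log2 fold change 0.89, SE 0.08, limma adjusted p = 0.000163). Pabpc4 encodes an inducible relative. It read 10.04, 9.84 and 9.88 in the knockout samples, against 8.93, 8.91 and 9.14 in the wild-type samples, and was 1.91-fold higher (limma adjusted p = 0.000309). The genes of the inhibitors of Pabpc1, Paip2 and Paip2b, stood at -0.23 and -0.13 and were not called. Paip1, which encodes a stimulating partner of Pabpc1, read 9.89, 9.93 and 9.76 in the knockout samples, against 10.07, 9.78 and 9.30 in the wild-type samples, and the groups overlapped. Pabpc4l was called higher by 0.42, but its signal of 3.49 to 3.99 was near the floor of the array. The further relatives Pabpc1l, Pabpc2, Pabpc5 and Pabpc6 were dim and not called, at -0.28 to -0.12.

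The cap-binding genes gave unlike values. Eif4e itself read 10.65, 10.73 and 10.63 in the knockout samples, against 10.98, 10.74 and 11.07 in the wild-type samples. Its representative probe set was not called (log2 fold change -0.26, SE 0.10, limma adjusted p = 0.0718), although its 3 other probe sets were called lower, at -0.29, -0.66 and -0.66, and it was called without wild-type sample 2 (-0.35, limma adjusted p = 0.0179). Eif4e2, which encodes a cap-binding protein that represses translation, read 9.86, 9.86 and 9.83 in the knockout samples, against 9.33, 9.15 and 8.84 in the wild-type samples. Its difference of 0.75 (SE 0.13, limma adjusted p = 0.00264) came from 1 of 5 probe sets; the other 4 were not called, at -0.28 to 0.14. For the helicase genes, Eif4a1 read 12.54, 12.49 and 12.42 in the knockout samples, against 11.95, 11.74 and 11.74 in the wild-type samples (log2 fold change 0.67, SE 0.09, limma adjusted p = 0.000949). All 3 of its probe sets were called higher. Its paralogue Eif4a2 stood at -0.12 (limma adjusted p = 0.268). Eif4a3, a nuclear relative in the exon junction complex, was dim and lower by 0.23 on the log2 scale (limma adjusted p = 0.0358), a call lost whichever of the 6 arrays was left out (limma adjusted p of 0.0516 to 0.115). Eif4h, a helper of the helicase, was higher by 0.43, and Eif4b, another helper, stood at 0.09 and was not called. Among the scaffolds, Eif4g2 was higher by 0.27 in its representative probe set. Of its 5 probe sets only 1 was called higher, while 2 were called lower, at -0.47 and -0.34, and 2 were not called. Eif4g3 stood at -0.13 and was not called, although 1 of its 4 probe sets was called lower, at -0.78. Eif4e3, a further cap-binding relative, was higher by 0.34, and Eif4enif1, which encodes the shuttling partner of eIF4E, stood at 0.26 and was not called. Eif4e3 lost its call without knockout sample 1, 2 or 3 or wild-type sample 1, and Eif4g2 lost it when any array other than wild-type sample 1 was left out.

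Among the 76 genes, the largest change fell on the gene of a binding protein that restrains eIF4E. Eif4ebp1 read 10.52, 10.58 and 10.33 in the knockout samples, against 8.62, 8.93 and 8.41 in the wild-type samples. It was 3.54-fold higher (log2 fold change 1.82, SE 0.14, limma adjusted p = 7.85e-05), and the groups did not overlap. Another probe set was higher by 2.34, and the dimmest of its 3 stood at -0.18 and was not called. Eif4ebp2, its paralogue, read 9.10, 9.15 and 9.16 in the knockout samples, against 9.17, 8.96 and 9.21 in the wild-type samples, and overlapped (log2 fold change 0.03, SE 0.09, limma adjusted p = 0.813). Of the 5 probe sets of Eif4ebp2, 3 were called lower, at -0.66, -0.58 and -0.31, and with probe sets averaged the gene was lower (-0.27, limma adjusted p = 0.0314). Eif4ebp3 was not analysed here.

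Of the 4 kinases that phosphorylate eIF2, 3 were higher (75%, against 21.6% of all genes) and 1 was lower (25%, against 27.7%). Eif2ak2 encodes PKR, which double-stranded RNA activates and interferon induces. It read 7.91, 7.85 and 8.0 in the knockout samples, against 6.93, 6.95 and 6.63 in the wild-type samples, and was 2.12-fold higher (log2 fold change 1.08, SE 0.11, limma adjusted p = 0.000223). All 3 of its probe sets were called higher. Eif2ak3 encodes PERK, the kinase of endoplasmic reticulum stress. It read 9.59, 9.59 and 9.68 in the knockout samples, against 9.06, 9.05 and 9.20 in the wild-type samples (log2 fold change 0.51, SE 0.08, limma adjusted p = 0.00201), but a dimmer probe set was called lower (-0.40) and the mean over its 3 probe sets was 0.06 (limma adjusted p = 0.579).

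The other kinases respond to amino acid lack and to haem. Eif2ak4, which encodes GCN2, read 7.70, 7.69 and 7.87 in the knockout samples, against 7.31, 7.47 and 6.75 in the wild-type samples. Its difference of 0.58 (SE 0.18, limma adjusted p = 0.0297) lost its call without knockout sample 1, 2 or 3, at limma adjusted p-values of 0.0678, 0.0644 and 0.0932. Eif2ak1, which encodes the haem-regulated kinase, read 9.38, 9.25 and 9.34 in the knockout samples, against 9.66, 9.70 and 9.94 in the wild-type samples. It was lower by 0.45 on the log2 scale (SE 0.10, limma adjusted p = 0.00855), and kept that call whichever array was left out. Immune cell markers moved in the same direction as Eif2ak2, with the values given above, and their part in its change was not tested.

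**Figure D3:**
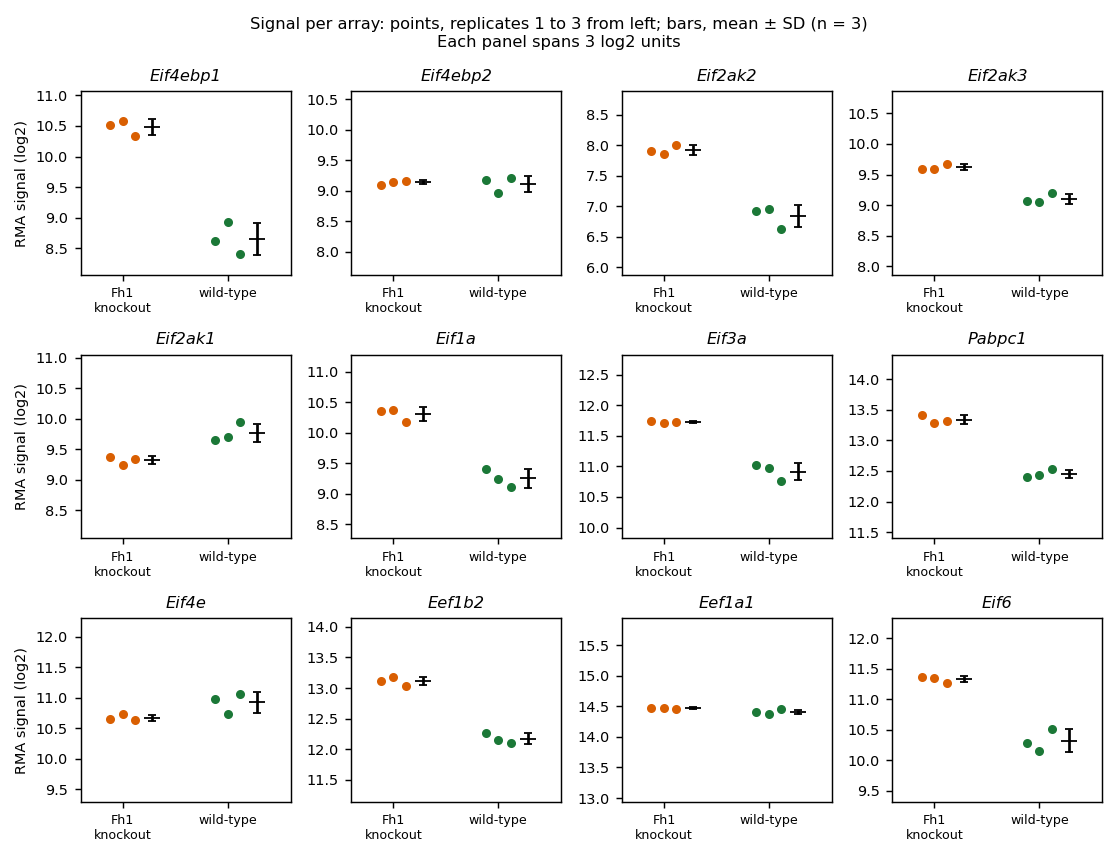
RMA signal (y axis, log2; each panel spans 3 log2 units) of 12 genes in the 3 Fh1 knockout samples (left) and the 3 wild-type samples (right), with points for replicates 1 to 3 and bars for the mean ± SD (n = 3 each). Eif4ebp1, Eif2ak2, Eif2ak3, Eif1a, Eif3a, Pabpc1, Eef1b2 and Eif6 are separated upward, Eif2ak1 is separated downward, Eif4ebp2 overlaps, and Eif4e and Eef1a1 differ by -0.26 and 0.06 and were not called.

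Among 14 elongation genes, 4 were higher (28.6%, against 21.6% of all genes), 1 was lower (7.14%, against 27.7%) and 9 were not called. Their median was 0.18. The genes called higher included those of the exchange complex that recharges eEF1A, while the eEF1A genes were not called. Eef1b2, the beta subunit of that complex, read 13.12, 13.18 and 13.04 in the knockout samples, against 12.27, 12.15 and 12.10 in the wild-type samples, and was 1.92-fold higher (log2 fold change 0.94, SE 0.09, limma adjusted p = 0.000155). Eef1d, the delta subunit, was higher by 0.57 (SE 0.10, limma adjusted p = 0.00312). Of its 4 probe sets 2 were called higher and 2 lower, and their mean was 0.06 (limma adjusted p = 0.481). Eef1a1, the main tRNA carrier, read 14.48, 14.48 and 14.46 in the knockout samples, against 14.41, 14.38 and 14.45 in the wild-type samples, close to the highest value in the table, 14.82. Its difference was 0.06 and was not called (limma adjusted p = 0.515). After quantile normalisation Eef1a1 was called higher (0.24, limma adjusted p = 0.0405), and with arrays centred it stood at -0.02 and was not called. The difference of Eef1a2, the form of muscle and neurons, was 0.05 (limma adjusted p = 0.745).

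Eef2, which moves the ribosome along the mRNA, read 13.25, 13.22 and 13.15 in the knockout samples, against 12.75, 12.74 and 12.94 in the wild-type samples (log2 fold change 0.40, SE 0.09, limma adjusted p = 0.00873). Its second probe set, at 3.62 to 4.0 on all arrays, was not called, and the mean of both was 0.10 (limma adjusted p = 0.283). Eef2k, the kinase that inhibits eEF2, read 6.68, 6.23 and 6.24 in the knockout samples, against 5.89, 6.11 and 6.08 in the wild-type samples, and was not called (0.35, limma adjusted p = 0.0669), while 1 of its other probe sets was called higher (0.80). Eif5a2 and Eif5a encode the hypusine-carrying factor that relieves stalled ribosomes. Eif5a2 was higher by 0.59 (SE 0.10, limma adjusted p = 0.00292), with 7.17, 7.30 and 7.31 in the knockout samples, against 6.81, 6.50 and 6.69 in the wild-type samples. Eif5a differed by 0.20 and was not called (limma adjusted p = 0.186). Eefsec encodes the factor that carries selenocysteine to the ribosome. It read 8.63, 8.57 and 8.62 in the knockout samples, against 9.20, 9.01 and 9.24 in the wild-type samples, and was the gene furthest down, lower by 0.55 on the log2 scale (SE 0.09, limma adjusted p = 0.00215). Its call held whichever array was left out. The methyltransferase genes Eef1akmt1, Eef1akmt2, Eef1aknmt and Eef2kmt, whose products modify eEF1A or eEF2, were not called, at -0.23 to 0.33. The other 3 probe sets of Eef1akmt1 were called lower, at -0.35, -0.52 and -0.85, and its representative was called lower without wild-type sample 3 (-0.28, limma adjusted p = 0.0243) and with arrays centred. Eef1e1, which encodes a partner of the aminoacyl-tRNA synthetases, stood at 0.05.

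At the end of translation, the release factor genes Etf1 and Gspt1 overlapped between groups and were not called, at 0.11 (limma adjusted p = 0.358) and -0.01 (limma adjusted p = 0.935). The probe sets of Gspt1 disagreed: 3 were called lower, at -0.41 to -0.46, and 1 higher, at 1.18. Eif6 encodes the factor that keeps the large subunit from joining too early and that acts in its assembly. It read 11.37, 11.35 and 11.27 in the knockout samples, against 10.29, 10.15 and 10.52 in the wild-type samples, and was 2.02-fold higher (log2 fold change 1.01, SE 0.11, limma adjusted p = 0.000319). Both of its probe sets were called higher.

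The symbol rule also gathers ribosomal S6 kinases, of which 2 of 6 were higher (33.3%, against 21.6% of all genes) and none lower (against 27.7%). Rps6ka3 encodes RSK2, a kinase activated by ERK signalling. It read 10.85, 10.73 and 10.65 in the knockout samples, against 9.94, 9.98 and 9.77 in the wild-type samples, and was 1.80-fold higher (log2 fold change 0.85, SE 0.10, limma adjusted p = 0.000384). Rps6ka6, a relative, was higher by 0.39 (limma adjusted p = 0.0165), and lost the call without knockout sample 3 (0.33, limma adjusted p = 0.0629). Rps6kb2, the S6 kinase downstream of mTOR, stood at -0.25 and was not called (limma adjusted p = 0.22). Without wild-type sample 2 it was called lower (-0.41, limma adjusted p = 0.0408). Rps6ka5 read 6.32, 6.19 and 6.18 in the knockout samples, against 5.86, 6.20 and 5.94 in the wild-type samples, and was not called (0.23, limma adjusted p = 0.105). Only wild-type sample 2 overlapped with the knockout samples, and without it Rps6ka5 was called higher (0.33, limma adjusted p = 0.025). That fit had 3 of the 6 kinases higher, against 21.2% of all genes, and 1 lower, against 26.4%. Rps6kc1 and Rps6kl1 overlapped between groups and were not called, at -0.08 and -0.27. Rps6kb1 was not analysed here.

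Relatives within a family were also set side by side. For 7 pairs of relatives, the difference between their signals on each array was compared between the groups with an exact permutation test (two-sided). With 3 arrays against 3 the smallest p is 0.1, and adjustment over the 7 pairs gives 0.12, so no pair could pass. In 6 pairs the knockout and wild-type differences did not overlap, but how often other gene pairs separate was not counted. Of all genes taken singly, 25.7% had all knockout values above all wild-type values, and 37.1% had them below. The change of Eif4ebp1 exceeded that of Eif4ebp2 by 1.80 log2 units, that of Eif2ak2 exceeded that of Eif2ak1 by 1.53, and that of Eif4e2 exceeded that of Eif4e by 1.00. These gaps hold for the representative probe sets; that of Eif4e2 was the only 1 of its 5 to be called, and probe sets of Eif4ebp2 and Gspt1 disagreed, as given above. Smaller gaps separated Eif4a1 from Eif4a2 (0.79) and Eif5a2 from Eif5a (0.39). The release factor gene Gspt2, which the symbol rule leaves out, exceeded Gspt1 by 1.79. Eef1a2 and Eef1a1 overlapped (exact p = 0.9).

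A list of 41 measured genes lay around these factors. They came from mTOR regulation, eIF2 dephosphorylation and stress signalling, eIF4E and eIF4A regulation, ribosome recycling and the enzymes that modify eIF5A and eEF2. Of the 41, 10 were higher (24.4%), 4 lower (9.76%) and 27 not called (median 0.12), against the backgrounds of 21.6% and 27.7%. Without knockout sample 1 or knockout sample 3 the number higher was 6. The number lower was 1 without knockout sample 1 or 3, and 2 without knockout sample 2 or wild-type sample 1. Over all genes, the fits without any of these samples gave 17.1% to 20.2% higher and 17.4% to 24% lower. The counts for this list also moved with the processing. After quantile normalisation 8 were higher and 8 lower, with arrays centred 6 and 7, and with probe sets averaged 10 and 7. Over all genes these settings gave 20.3% higher and 22% lower, 18.6% and 37.7%, and 20.2% and 30%, in that order. Ddit4, an inhibitor of mTOR signalling, changed most and was 4.51-fold higher (limma adjusted p = 3.26e-05). Gspt2 read 8.08, 8.0 and 7.94 in the knockout samples, against 6.37, 6.01 and 6.30 in the wild-type samples, and was 3.44-fold higher (limma adjusted p = 3.69e-05). Mtor, the kinase that phosphorylates the eIF4E-binding proteins, read 10.04, 9.78 and 9.92 in the knockout samples, against 10.84, 11.17 and 11.07 in the wild-type samples, and was 2.17-fold lower (limma adjusted p = 0.000257). Among the 15 mTOR genes 3 were higher and 2 lower, among 7 for recycling and reinitiation 3 higher and 1 lower, and among 8 that make hypusine or diphthamide 2 higher and none lower. Of 6 genes around eIF2 dephosphorylation and its stress signalling 1 was higher and 1 lower, and of 5 regulators of eIF4E and eIF4A 1 was higher and none lower.

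The 76 genes were covered by 194 probe sets, and how a gene was read mattered for some of them. In a fit of all 34945 single-gene probe sets, 73 of the 194 were higher, 29 lower and 92 not called, against 20.6% higher and 24.8% lower among all probe sets. Of 51 genes with several probe sets, 5 had probe sets called in both directions. Of 32 called genes with several, 14 had all of them called in the same direction, and 4 had another called the opposite way: Eef1d, Eif2ak3, Eif3d and Eif4g2. With probe sets averaged per gene, 28 genes (36.8%) were higher and 9 (11.8%) lower, against 20.2% and 30% of all genes in that fit. Among genes not called, Eif1b (-0.26), Eif2b1 (-0.23) and Paip2 (-0.30) were called lower without wild-type sample 3, and Pabpc2 (-0.38) without wild-type sample 1. Eif2s2, Eif3e and other genes outside the naming rule were chosen after their values were seen.

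**Figure D4:**
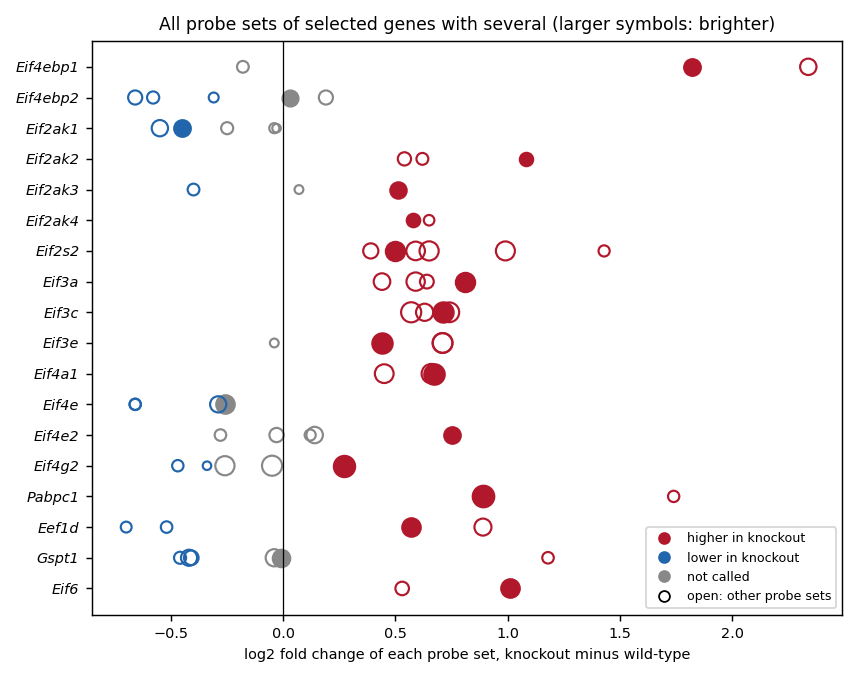
Log2 fold change, knockout minus wild-type (x axis, log2 units), of every probe set of 18 genes with several (rows); filled symbols are the probe set that represents the gene, open symbols the others, and larger symbols are brighter. The probe sets of Eif2s2, Eif3a, Eif3c and Eif2ak2 all lie on the right, whereas those of Eif4ebp2, Eef1d, Eif4g2 and Gspt1 fall on both sides of 0.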

How the data were processed

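Gene expression was measured on 1 Affymetrix array per sample, in 3 Fh1 knockout and 3 wild-type samples. The table that the authors deposited gives 45101 probe sets on the log2 scale, made with RMA per the submitters' processing notes, with its software and chip definition not given in the sources used here. Values ran from 2.9 to 14.82, and array medians from 6.2 to 6.25. The number of arrays limits the precision. Probe sets with exactly 1 gene in the platform annotation (34945) were reduced to the brightest per gene, leaving 18193 genes. Groups were compared with limma 3.58.1 (R 4.3.3; lmFit, eBayes, two-sided, Benjamini-Hochberg over all genes), without covariates, and the procedure was tested on simulated data. Promoter motifs and figures used Python 3.11.15 and matplotlib 3.10.9. Named genes were 23 listed regulators and core factors where measured, the 3 largest called changes per role and per surrounding list with the largest the other way, or, in roles with fewer than 2 calls, the 2 smallest p-values. Members and lists were chosen with earlier results of these data known. Alternatives changed the probe set rule, signal filter, prior, array scaling, weights, replicate block, threshold and samples.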

Additional observations from a re-analysis of the deposited data

How the results depend on the processing

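The number of genes called higher (35) stayed within 1.5 times and the median log2 fold change stayed above that of all genes under every alternative run. The number lower was 4 as deposited, and 9 with probe sets averaged, 11 with arrays centred, 8 after quantile normalisation, 7 with array weights and 2 at an adjusted p of 0.01. Over all genes the share lower was 27.7% as deposited. It was 30% with probe sets averaged, 37.7% with arrays centred, 22% after quantile normalisation and 27.3% with array weights. Leaving out each sample gave 27 to 33 higher and 2 to 6 lower, with 2 lower when knockout sample 1, 2 or 3 was left out. These were 35.5% to 43.4% higher and 2.63% to 7.89% lower. Over all genes the same fits gave 17.1% to 21.2% higher and 17.4% to 26.4% lower. Of the 39 called genes 27 kept their call in all 6 such fits. Eif4ebp2 reversed to -0.27 with probe sets averaged; its probe sets disagree. The cause of the other shifts was not tested. Replicate numbers did not pair the samples: deviations of same-numbered arrays correlated at -0.099, -0.126 and -0.125. With a replicate block 29 of the 76 genes (38.2%) were higher and 3 (3.95%) lower, against 19.3% and 21.6% of all genes. RMA gives no detection call, so dim genes such as Pabpc4l, Pabpc5 and Pabpc6 cannot be told from background.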
